A study of Mus musculus with 8 samples.

Results

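The genes described here are 8 genes of the Nodal pathway: the ligand Nodal, its coreceptor Tdgf1 (Cripto), the secreted inhibitors Lefty1 and Lefty2, the type II activin receptor Acvr2b, the signal transducers Smad2 and Smad3, and the DNA-binding partner Foxh1. They were chosen by name, with earlier results of these data known. The shares over all genes given beside the counts are therefore for scale and do not test the list. Each gene was followed on every probe set whose annotation names that gene alone. This gave 16 probe sets for the 8 genes, of 34945 probe sets that name a single gene and 18193 genes in all. Nodal had 2 such probe sets, Foxh1, Acvr2b and Smad3 had 3 each, Smad2 had 2, and Tdgf1, Lefty1 and Lefty2 had 1 each. No filter on low values was applied, so all 8 genes were tested, and all 8 also passed a filter for genes above the array median on at least 2 arrays.

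RNA of mouse cells was hybridised to 8 Affymetrix expression arrays, in 4 groups of 2: Tfap2c-/- PGCLCs, control PGCLCs, Tfap2c-/- ESCs and control ESCs. ESCs are embryonic stem cells, and PGCLCs are primordial germ cell-like cells made from them in culture in embryoid bodies, after Hayashi and colleagues. The labels call these cells PGC and the knockout Tcfap2c KO, after an older name of Tfap2c, the gene of a transcription factor of the AP-2 family. The ESCs came from crosses of Blimp1mVenus reporter mice with mice whose Tfap2c is flanked by loxP sites, so all 4 groups carry the reporter and descend from Tfap2c flox/flox cells. The controls kept the floxed gene, and the knockout was made in the ESCs by a transient transfection with a pGK-Cre plasmid. The medium named in the methods holds LIF and inhibitors of MEK and GSK3. To make PGCLCs, the study first turned ESCs into epiblast-like cells. These were then grown with EGF, SCF, LIF, BMP4 and BMP8b. The PGCLC and ESC groups thus differ in culture as well as in cell type, and these cannot be told apart. The PGCLCs were sorted for the Blimp1mVenus reporter before RNA extraction. The study used 2 control lines and the knockout line derived from each, and names all of them for the arrays of both cell types. Knockout and control arrays are thus paired by line, but the labels do not say which array came from which line. All values are expression levels on the log2 scale, so a difference of 1 is a 2-fold difference. Levels of different probe sets are not compared with each other, except in the summed levels of marker genes, where the brightest probe sets weigh most.

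Nodal is a ligand of the TGF-beta superfamily. It binds type I and type II activin receptors together with an EGF-CFC coreceptor such as Tdgf1, and the receptors phosphorylate SMAD2 and SMAD3, which enter the nucleus with SMAD4 and act at target genes with partners such as FOXH1. Nodal itself, Lefty1 and Lefty2 are targets of this signal in the mouse embryo, and the Lefty proteins block the ligand and its coreceptor, which closes a feedback loop. The pathway maintains the epiblast before gastrulation and patterns the mesoderm and endoderm, and in the male germ line Nodal and Tdgf1 have been linked to pluripotency and to germ cell tumours.

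Since several of these genes were higher together in Tfap2c-/- PGCLCs, promoter sequences were read from a reference. The promoters of 4 of the 8 genes, Nodal, Tdgf1, Acvr2b and Smad3, were taken from the RefSeq table (GRCm38.p6). The rest are not reported here. The 250 bases before the start of Nodal (chr10:61417722-61417971, plus strand) and of Tdgf1 (chr9:110946159-110946408, minus strand) are shown because they belong to the ligand and to the coreceptor it needs. Capitals mark matches to any of 3 motifs searched on both strands, GCCNNNGGC for AP-2 factors, CAGAC for SMADs and AATNNACA for FOXH1.
Nodal: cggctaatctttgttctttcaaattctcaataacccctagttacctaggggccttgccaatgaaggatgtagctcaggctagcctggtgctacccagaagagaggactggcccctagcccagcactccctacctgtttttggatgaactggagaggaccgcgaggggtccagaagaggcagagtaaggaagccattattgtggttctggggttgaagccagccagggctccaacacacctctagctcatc
Tdgf1: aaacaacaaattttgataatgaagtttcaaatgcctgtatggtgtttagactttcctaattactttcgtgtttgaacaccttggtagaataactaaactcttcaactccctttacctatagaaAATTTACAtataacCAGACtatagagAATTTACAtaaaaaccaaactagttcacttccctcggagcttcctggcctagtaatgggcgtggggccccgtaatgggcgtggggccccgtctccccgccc
The Nodal window held no match to any of the 3 motifs. The Tdgf1 window held 2 FOXH1 matches, which begin 127 and 101 bases before the start, and 1 SMAD match between them, 113 bases before the start, with no overlap among them. The windows of Acvr2b and Smad3 were 72.8% and 69.2% G and C, those of Nodal and Tdgf1 53.2% and 42.0%. Acvr2b held 1 SMAD match, 233 bases before its start, and Smad3 held none of the 3 motifs. Of 32851 promoter windows of the same length, 13.7% held the AP-2 motif, 42.2% the SMAD motif and 10.9% the FOXH1 motif. These are matches of letters in a short window, and no binding was measured on the arrays.

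The levels of the targeted gene and of marker genes come first, since the PGCLC results stand beside them. Tfap2c read 8.52 and 8.85 in Tfap2c-/- PGCLCs, against 9.84 and 10.29 in control PGCLCs. In Tfap2c-/- ESCs it read 7.28 and 6.47, against 7.88 and 9.14 in control ESCs. The knockout arrays lay below the control arrays in both cell types, with log2 differences of -1.38 (SE 0.42, adjusted p = 0.15, limma) and -1.63 (SE 0.42, adjusted p = 1, limma). Whether the probes lie in the part of the gene removed by Cre is not given in the sources used here. The paper checked the knockout by other means. It genotyped the ESC lines by PCR and stained them for TFAP2C protein. Its RT-PCR legend reports no signal in Tfap2c-/- PGCLCs, apparently for Tfap2c. Of 7 measured germ cell markers, Tfap2c among them, 5 were higher in PGCLCs than in ESCs among the controls. In Tfap2c-/- PGCLCs 3 of the 7 (Dppa3, Kit and Itgb3) were lower than in control PGCLCs. The 15 poly-A spike-in probe sets averaged 6.19 and 5.67 on the Tfap2c-/- PGCLC arrays, 4.94 and 6.58 on the control PGCLC arrays and 4.60 to 4.98 on the 4 ESC arrays, so 3 of the 4 PGCLC arrays lay above all ESC arrays and control PGCLC array 1 lay with them. Control PGCLC array 2 had the widest gap between the 3′ and 5′ probe sets of Gapdh, 0.95 against 0.31 to 0.52 on the other 7 arrays. The part of these differences in the results was not tested. Control PGCLC array 2 stands apart on the Gapdh measure. Calls of the pathway genes that rest on it are also given without it, and calls of the marker genes are not.

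In Tfap2c-/- PGCLCs the transcripts of the ligand, its coreceptor and a Lefty gene were higher than in control PGCLCs, by 1.83-fold for Nodal, 2.57-fold for Tdgf1 and 2.91-fold for Lefty1. Lefty2 lay 2.11-fold higher without passing the test, and none of the receptor, SMAD and cofactor genes passed it. The comparison asks what the loss of Tfap2c does to the expression of these genes in germ cell-like cells. Of the 8 genes, 3 were called higher and 0 lower at an adjusted p under 0.05 in limma. Of all 18193 genes 3.09% were called in either direction, 1.29% higher and 1.8% lower. In bulk RNA, more transcript per cell and a larger share of cells with the transcript cannot be told apart.

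Nodal (probe set 1422058_at) read 9.71 and 9.80 in Tfap2c-/- PGCLCs and 8.96 and 8.80 in control PGCLCs. Both knockout arrays lay above both control arrays. The log2 difference was 0.88 (SE 0.14, 95% interval 0.56 to 1.19, adjusted p = 0.0184, limma). The dimmer probe set of Nodal, 1422057_at, read 6.79 and 6.76 in Tfap2c-/- PGCLCs and 6.14 and 5.48 in control PGCLCs. Its difference of 0.97 was close to that of the first probe set, and it was not called when every probe set was tested as a row (adjusted p = 0.114, limma).

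Tdgf1, the coreceptor that Nodal needs to engage its receptors, read 11.03 and 11.11 in Tfap2c-/- PGCLCs and 9.49 and 9.93 in control PGCLCs. The groups lay more than 1 log2 unit apart, while the arrays within a group were 0.09 and 0.45 apart. The difference of 1.36 (SE 0.15, 95% interval 1.01 to 1.71, adjusted p = 0.00598, limma) had the smallest p of the 8 genes. From these arrays the paper also lists Tdgf1, at 1.36, among upregulated pluripotency genes in Tfap2c-/- PGCLCs, below its own cutoff. Without control PGCLC array 2 Tdgf1 was still called, while Nodal (0.80, adjusted p = 0.16, limma) and Lefty1 (1.58, adjusted p = 0.123, limma) kept their direction and were not called. Among the alternative limma fits, Tdgf1 lost its call only without Tfap2c-/- PGCLC array 2, where its adjusted p was 0.0539 in limma.

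Lefty1, a secreted inhibitor of Nodal, read 10.85 and 10.95 in Tfap2c-/- PGCLCs and 9.32 and 9.40 in control PGCLCs. The 2 arrays of each group differed by 0.10 and 0.09 and the groups did not overlap. The difference was 1.54 (SE 0.23, 95% interval 1.00 to 2.09, adjusted p = 0.0177, limma), and Lefty1 was the only one of the 8 genes past a difference of 1.5, the fold rule of the study, which 1.06% of all genes passed upwards. Nodal and Lefty1 each lost their call without any 1 of the 4 PGCLC arrays, with adjusted p values in limma of 0.0507 to 0.16 for Nodal and 0.0723 to 0.125 for Lefty1.

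Lefty2, the paralog of Lefty1, read 10.16 and 10.25 in Tfap2c-/- PGCLCs and 9.09 and 9.17 in control PGCLCs. In these arrays the groups were as tight as those of Lefty1 and did not overlap. The difference was 1.08 (SE 0.31, 95% interval 0.35 to 1.80, unadjusted p = 0.00951, adjusted p = 0.133, limma). The SE takes in the spread of all 4 groups, and the 2 Tfap2c-/- ESC arrays of Lefty2 lay 1.11 apart. Fitted on the 4 PGCLC arrays alone Lefty2 passed (adjusted p = 0.0306, limma), as it did without Tfap2c-/- ESC array 1 (adjusted p = 0.0168, limma) or 2 (adjusted p = 0.0174, limma). Both Lefty genes stand on 1 probe set each, and whether either probe set also reads the other transcript was not tested.

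Smad3, which carries the signal to the nucleus, read 6.92 and 6.51 in Tfap2c-/- PGCLCs and 7.42 and 7.17 in control PGCLCs. The knockout arrays lay below the control arrays, by 0.59 (SE 0.19, unadjusted p = 0.017, adjusted p = 0.183, limma), which did not pass. The other 2 probe sets of Smad3 are dim, with levels between 2.27 and 3.09 on the PGCLC arrays, and differed by -0.06 and 0.05. Smad2 read 6.80 and 6.99 in Tfap2c-/- PGCLCs and 7.05 and 7.19 in control PGCLCs, a difference of -0.22 (adjusted p = 0.566, limma). The receptor Acvr2b read 7.15 and 7.48 in Tfap2c-/- PGCLCs and 7.22 and 7.18 in control PGCLCs, and the cofactor Foxh1 read 6.71 and 6.32 in Tfap2c-/- PGCLCs and 6.37 and 6.74 in control PGCLCs. Both overlapped between the groups, and their differences were 0.12 (95% interval -0.39 to 0.63) and -0.04 (95% interval -0.55 to 0.48).

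In PGCLCs the knockout arrays lay wholly above the control arrays for 4 of the 8 genes and wholly below for 2, against 19.5% and 27.9% of all genes. The median difference of the 8 genes was 0.50, against -0.04 over all genes tested.

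**Figure D1:**
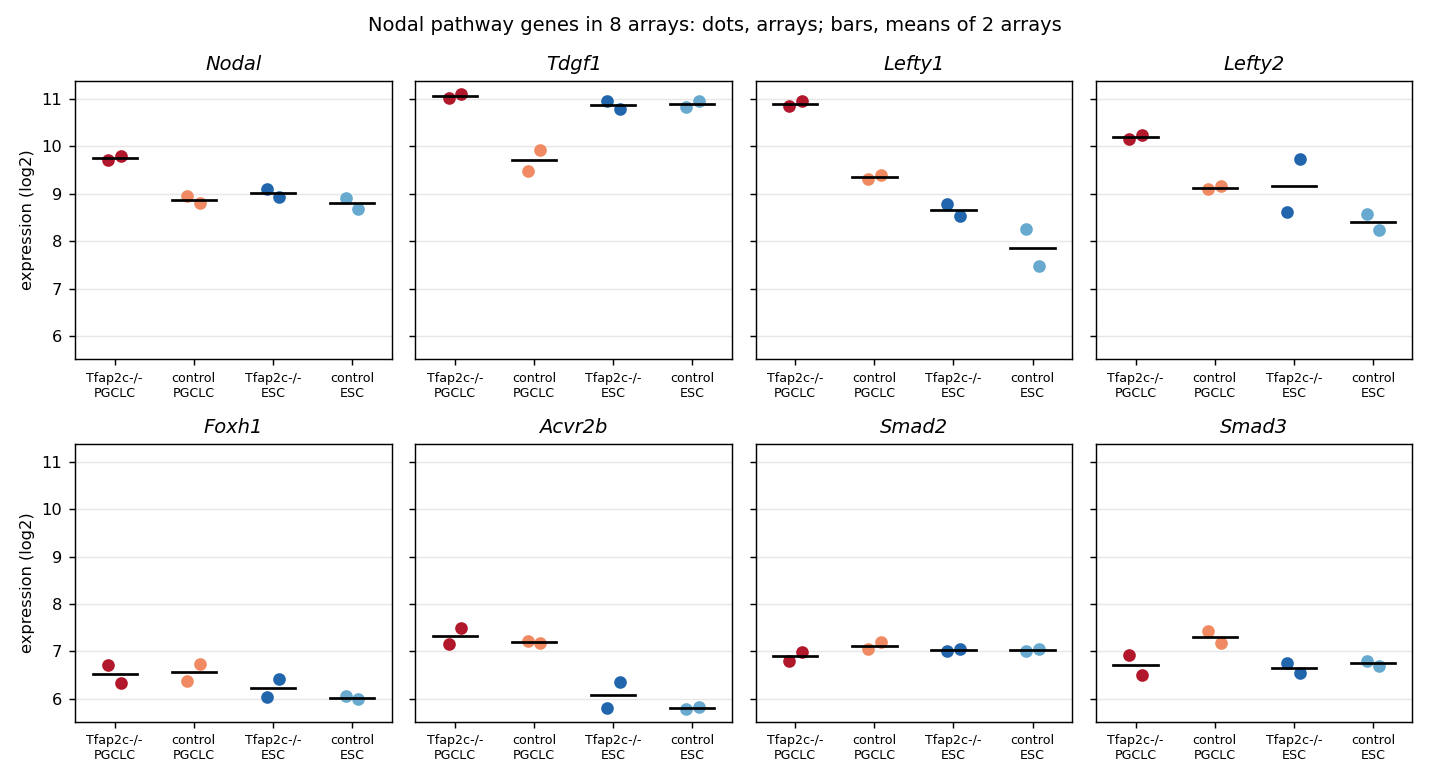
Expression (log2) of the probe set that stands for each of the 8 genes, with a dot for each array and a bar for the mean of the 2 arrays of a group. Nodal, Tdgf1, Lefty1 and Lefty2 have both Tfap2c-/- PGCLC arrays above both control PGCLC arrays, and the low group for Tdgf1 is the control PGCLCs, at 9.49 and 9.93.

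Markers of other cell states were read from the same arrays. The 7 germ cell markers include Tfap2c, the targeted gene, which read 8.52 and 8.85 in Tfap2c-/- PGCLCs and 9.84 and 10.29 in control PGCLCs. With it, their summed level, as log2, was 10.27 and 10.40 in Tfap2c-/- PGCLCs and 11.86 and 12.25 in control PGCLCs. The sum was not taken without Tfap2c. The summed level of the 4 primed epiblast markers (Fgf5, Otx2, Pou3f1 and Dnmt3b) was 9.90 and 9.82 in Tfap2c-/- PGCLCs, against 8.67 and 8.51 in control PGCLCs. Only 1 of 4, Pou3f1, was called higher. Most of the sum is Dnmt3b, at 9.53 and 9.27 in Tfap2c-/- PGCLCs and 8.28 and 7.88 in control PGCLCs. Dnmt3b was not called (adjusted p = 0.0777, limma) and read 8.87 to 9.85 in ESCs. Otx2 differed by 1.26 and Fgf5 by -0.21, neither of them called. The summed level of the 8 naive ESC markers was 13.13 and 13.36 in Tfap2c-/- PGCLCs and 13.03 and 12.93 in control PGCLCs. That list also holds Pou5f1, Sox2 and Nanog, which the paper names as pluripotency markers, so the sum is not particular to the naive state. Pou5f1 and Sox2, its brightest genes in PGCLCs, differed by 0.25 and 0.04, and neither was called. Only 1 of 8, Klf4, was called higher, by 2.22. The 7 endoderm markers summed to 6.78 and 6.03 in Tfap2c-/- PGCLCs and to 6.75 and 5.87 in control PGCLCs. The 6 measured mesoderm markers summed to 6.62 and 6.46 in Tfap2c-/- PGCLCs and to 6.54 and 6.47 in control PGCLCs. No gene of either list was called. Of the endoderm markers 0 lay above the array median on all 8 arrays and 3 lay below it on all. Of the mesoderm markers 4 lay above it and 2 below it on all arrays. The 6 fibroblast markers summed to 6.94 and 5.93 in Tfap2c-/- PGCLCs and to 6.58 and 5.68 in control PGCLCs, with none called and none above the array median on all 8 arrays. The endoderm and fibroblast sums were higher on array 1 than on array 2 in both PGCLC groups. The part of the germ cell, primed and naive marker genes in the Nodal, Tdgf1 and Lefty differences was not tested.

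In ESCs none of the 8 genes was called between Tfap2c-/- and control cells, where 0% of all genes were called. By the rule of a difference over 1.5 there were 0 of the 8 genes on either side. Of all genes 0.011% passed that rule on the higher side and 0.121% on the lower side. At an unadjusted p under 0.05 there were 2 of the 8 genes, Lefty1 and Lefty2, and 455 of all 18193 genes, and the smallest adjusted p of any gene was 0.263 in limma. Lefty1 read 8.78 and 8.53 in Tfap2c-/- ESCs and 8.25 and 7.48 in control ESCs. The knockout arrays lay above the control arrays, by 0.79 (SE 0.23, 95% interval 0.25 to 1.33, unadjusted p = 0.0103, adjusted p = 1, limma). The difference was 0.40 without control ESC array 2 and 1.18 without control ESC array 1. Lefty2 read 8.62 and 9.72 in Tfap2c-/- ESCs and 8.58 and 8.25 in control ESCs. The lower knockout array lay 0.04 above the higher control array, and the difference of 0.76 (SE 0.31, unadjusted p = 0.0433, adjusted p = 1, limma) depends on Tfap2c-/- ESC array 2. Without that array it was 0.20.

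Tdgf1 overlapped between the genotypes in ESCs, at 10.95 and 10.78 in Tfap2c-/- ESCs against 10.82 and 10.95 in control ESCs, with a difference of -0.02 (95% interval -0.37 to 0.33). Nodal read 9.09 and 8.93 in Tfap2c-/- ESCs and 8.92 and 8.67 in control ESCs, and the lower knockout array lay just above the higher control array. Its difference was 0.21 (95% interval -0.10 to 0.53). Acvr2b read 5.80 and 6.36 in Tfap2c-/- ESCs and 5.78 and 5.82 in control ESCs, and Foxh1 read 6.04 and 6.42 in Tfap2c-/- ESCs and 6.05 and 6.0 in control ESCs. In both, Tfap2c-/- ESC array 2 was the high one. Smad2 and Smad3 differed by -0.00 and -0.10, with overlapping arrays. The knockout arrays lay wholly above the control arrays for 3 of the 8 genes and wholly below for 0, against 11.8% and 11% of all genes, and the median difference of the 8 genes was 0.21, against -0.00 over all genes.

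The difference between the knockout effects in PGCLCs and in ESCs was tested on its own. None of the 8 genes passed, where 0.148% of all genes did. Unadjusted, 2 of the 8 genes had a p under 0.05, as had 1639 of all genes. Tdgf1 came nearest, with an effect 1.38 larger in PGCLCs than in ESCs (SE 0.21, 95% interval 0.89 to 1.87, adjusted p = 0.0793, limma). The Nodal effect was 0.66 larger in PGCLCs (adjusted p = 0.333, limma), that of Lefty1 0.75 (adjusted p = 0.569, limma) and that of Lefty2 0.32 (95% interval -0.71 to 1.35, adjusted p = 0.906, limma). For the Lefty genes the intervals include effects of equal size in both cell types.

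**Figure D2:**
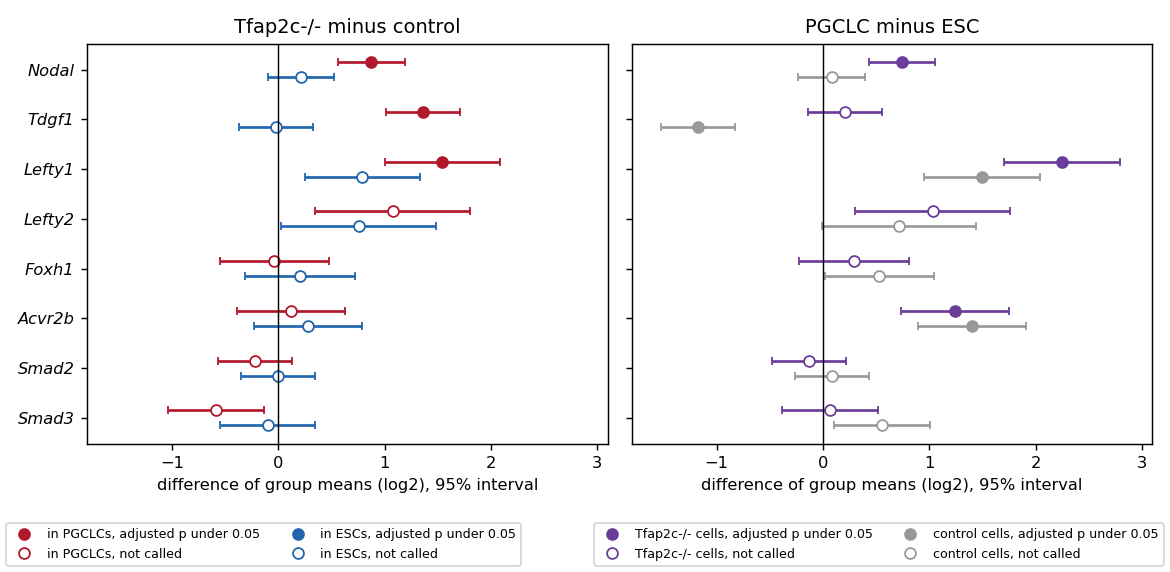
Differences of group means (log2, with 95% intervals of limma) for the 8 genes, Tfap2c-/- minus control in PGCLCs and ESCs on the left and PGCLC minus ESC in Tfap2c-/- and control cells on the right, with filled points for an adjusted p under 0.05. Nodal, Tdgf1 and Lefty1 are filled in PGCLCs, no gene is filled in ESCs, and Tdgf1 is the only gene called lower in a PGCLC minus ESC comparison.

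Set against ESCs, control PGCLCs had less Tdgf1 and more Lefty1 and Acvr2b. Of the 8 genes, 2 were called higher and 1 lower, where 8.37% of all genes were called, 4.64% higher and 3.72% lower. Tdgf1 lay at 9.49 and 9.93 in control PGCLCs, against 10.82 and 10.95 in control ESCs, 2.26-fold lower (log2 difference -1.18, SE 0.15, adjusted p = 0.00553, limma). Lefty1 lay at 9.32 and 9.40 in control PGCLCs, against 8.25 and 7.48 in control ESCs (1.5, SE 0.23, adjusted p = 0.0109, limma), a 2.82-fold difference. Acvr2b lay at 7.22 and 7.18 in control PGCLCs, against 5.78 and 5.82 in control ESCs (1.40, SE 0.22, adjusted p = 0.0109, limma), a 2.64-fold difference. For these 3 genes the groups did not overlap. The second probe set of Acvr2b, 1439856_at, differed by 0.55 and the remaining one, the dim 1440525_at, by -0.13, and neither was called. Nodal differed by 0.08 (95% interval -0.23 to 0.39), which did not pass. Lefty2 (0.72), Foxh1 (0.53) and Smad3 (0.55) lay above the ESC level without passing, with adjusted p values of 0.221, 0.2 and 0.133 in limma. The Tdgf1 call held in all 17 alternative limma fits, though its difference of -1.18 does not pass the rule of 1.5. Lefty1 was not called without control PGCLC array 1 (adjusted p = 0.0522, limma) or 2 (adjusted p = 0.0764, limma), and Acvr2b was not called without any 1 of the 4 arrays compared, nor as the mean of its probe sets (0.61, adjusted p = 0.126, limma). The PGCLC arrays lay wholly above the ESC arrays for 6 of the 8 genes and wholly below for 1, against 25.3% and 28.5% of all genes.

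Among the knockout cells, PGCLCs had more Nodal, Lefty1 and Acvr2b than ESCs. Of the 8 genes 3 were called, all higher, where 2.32% of all genes were called, 1.35% higher and 0.973% lower. Lefty1 lay at 10.85 and 10.95 in Tfap2c-/- PGCLCs, against 8.78 and 8.53 in Tfap2c-/- ESCs, 4.75-fold higher (2.25, SE 0.23, adjusted p = 0.00757, limma). Nodal lay at 9.71 and 9.80 in Tfap2c-/- PGCLCs, against 9.09 and 8.93 in Tfap2c-/- ESCs (0.74, SE 0.14, adjusted p = 0.039, limma). Acvr2b lay at 7.15 and 7.48 in Tfap2c-/- PGCLCs, against 5.80 and 6.36 in Tfap2c-/- ESCs (1.24, SE 0.22, adjusted p = 0.0357, limma). Tdgf1 was 0.21 higher in Tfap2c-/- PGCLCs than in Tfap2c-/- ESCs, with an interval of -0.14 to 0.55. The Tfap2c-/- PGCLC arrays lay wholly above the Tfap2c-/- ESC arrays for 5 of the 8 genes and wholly below for 1, against 18.5% and 29.5% of all genes. The Lefty1 call held in all 17 alternative settings, while that of Nodal was lost in 11 and that of Acvr2b in 9. Each of these comparisons shares an array group with a knockout comparison above, so their values stand side by side and are not separate evidence.

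By group, the level of Tdgf1 was 11.07 in Tfap2c-/- PGCLCs, 10.89 in control ESCs and 10.87 in Tfap2c-/- ESCs, with control PGCLCs last at 9.71, and of the pairs tested only those with the control PGCLCs passed. For Lefty1 the order was 10.90 in Tfap2c-/- PGCLCs, 9.36 in control PGCLCs, then 8.65 in Tfap2c-/- ESCs and 7.87 in control ESCs. Its first step passed the test, its last did not, and the middle pair was not tested. For Nodal the Tfap2c-/- PGCLCs, at 9.75, lay above the other 3 groups, which lay between 8.80 and 9.01. Lefty2 had the Tfap2c-/- PGCLCs on top at 10.20 and the other groups between 8.41 and 9.17, a span that its Tfap2c-/- ESC arrays, at 8.62 and 9.72, cover for the most part.

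Across the 16 probe sets, the 5 of Nodal, Tdgf1, Lefty1 and Lefty2 had PGCLC knockout differences of 0.88 to 1.54, while the 11 of the other 4 genes ranged from -0.59 to 0.21. In ESCs all 16 lay between -0.23 and 0.79.

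**Figure D3:**
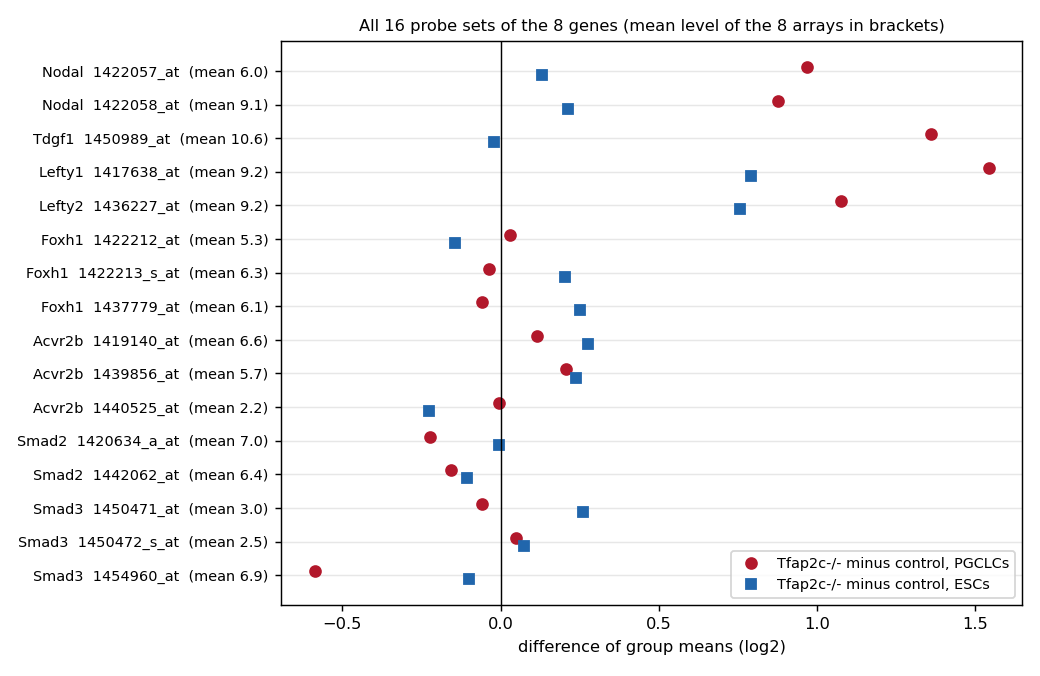
Tfap2c-/- minus control difference (log2) on each of the 16 probe sets, with circles for PGCLCs and squares for ESCs, and the mean level over the 8 arrays in brackets. The 5 probe sets of Nodal, Tdgf1, Lefty1 and Lefty2 lie at 0.88 or above in PGCLCs, and the 2 probe sets of Nodal lie close together, at 0.97 and 0.88.

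A further 50 genes of the pathway were listed by role, of which 47 were measured on a probe set of their own. In Tfap2c-/- against control PGCLCs 3 of the 47 were higher and 2 lower, against 1.29% and 1.8% of all genes, with a median difference of 0.01. None was called in ESCs, and none for the difference between the knockout effects. Of the 11 intracellular inhibitors 3 were higher and 1 lower. Tgif1, a homeodomain repressor that binds SMAD2 and SMAD3, read 8.78 and 8.88 in Tfap2c-/- PGCLCs and 7.72 and 7.01 in control PGCLCs (1.47, adjusted p = 0.0166, limma). Its relative Tgif2 moved the other way, at 7.63 and 7.66 in Tfap2c-/- PGCLCs against 9.17 and 9.41 in control PGCLCs (-1.64, adjusted p = 0.00244, limma). Tgif2 was called in all 17 alternative settings run for this comparison, and the Tgif1 call was lost without control PGCLC array 2 (1.11, adjusted p = 0.056, limma), without Tfap2c-/- PGCLC array 1 (adjusted p = 0.07, limma) or 2 (adjusted p = 0.119, limma), and with only the 4 arrays compared (adjusted p = 0.0834, limma).

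Pmepa1, a TGF-beta target that sequesters SMADs, read 6.92 and 6.69 in Tfap2c-/- PGCLCs and 5.62 and 5.38 in control PGCLCs (1.30, adjusted p = 0.0303, limma). Dact2, which in zebrafish and mouse has been linked to the turnover of Nodal receptors, read 6.55 and 6.27 in Tfap2c-/- PGCLCs and 5.61 and 5.50 in control PGCLCs (0.85, adjusted p = 0.04, limma). Both calls were lost without any 1 of the 4 PGCLC arrays, without either control ESC array and with only the 4 arrays compared. With the probe sets of a gene averaged, the differences were 0.73 for Pmepa1 (adjusted p = 0.0964, limma) and 0.40 for Dact2 (adjusted p = 0.194, limma), neither of them called. Smad7 and Skil, feedback inhibitors of SMAD signalling, were not called between Tfap2c-/- and control PGCLCs. Cfc1 (Cryptic), the other EGF-CFC coreceptor, read 5.19 and 4.78 in Tfap2c-/- PGCLCs and 6.5 and 6.12 in control PGCLCs (-1.33, adjusted p = 0.0218, limma), opposite in direction to Tdgf1. The other 5 receptors and coreceptors were not called, and Cfc1 itself was not called without Tfap2c-/- PGCLC array 2 (-1.12, adjusted p = 0.144, limma), control PGCLC array 1 (-1.14, adjusted p = 0.0851, limma) or control PGCLC array 2 (-1.52, adjusted p = 0.0812, limma), nor with only the 4 arrays compared (adjusted p = 0.0865, limma).

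No gene of the remaining lists was called in PGCLCs in the fit of all 8 arrays. Among the 6 measured ligands and convertases the largest differences were those of Inhbb (1.70, adjusted p = 0.509, limma), an activin subunit, and Gdf3 (0.49, adjusted p = 0.226, limma), a Nodal-related ligand. The Inhbb arrays were far apart within groups, at 4.45 and 6.96 in Tfap2c-/- PGCLCs and 3.75 and 4.26 in control PGCLCs. Among the 8 SMAD complex genes and cofactors, Smad4, the common partner SMAD, differed by 0.31 (adjusted p = 0.198, limma) and Rnf111, a ubiquitin ligase that removes SKI and SKIL, by 0.29 (adjusted p = 0.598, limma). Among the 9 extracellular inhibitors Fstl1 differed by 1.16 (adjusted p = 0.0935, limma), and it was called without control ESC array 1 (adjusted p = 0.0472, limma) or 2 (adjusted p = 0.0456, limma). In the same list, the activin antagonist Fst differed by 0.45 (adjusted p = 0.84, limma). Of 7 measured target and mesendoderm genes, Lhx1 differed by -0.73 (adjusted p = 0.075, limma) and Eomes by -0.22. All 7 lay between -0.73 and 0.06. Most of them were dim. On the PGCLC arrays Gsc read 1.95 to 2.12, Mixl1 2.40 to 2.85, Foxa2 2.82 to 3.18 and Lhx1 2.85 to 3.83. Mesp1 and Sox17 read 3.31 to 3.92, and Eomes 5.09 to 5.90. The medians of these arrays were 3.53 to 3.55, and a change in genes at such levels could go unseen. With the probe sets of Lhx1 averaged its difference was -1.16 and was called (adjusted p = 0.0257, limma). The study lists Lhx1 among its downregulated genes in Tfap2c-/- PGCLCs, past its own fold rule.

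**Figure D4:**
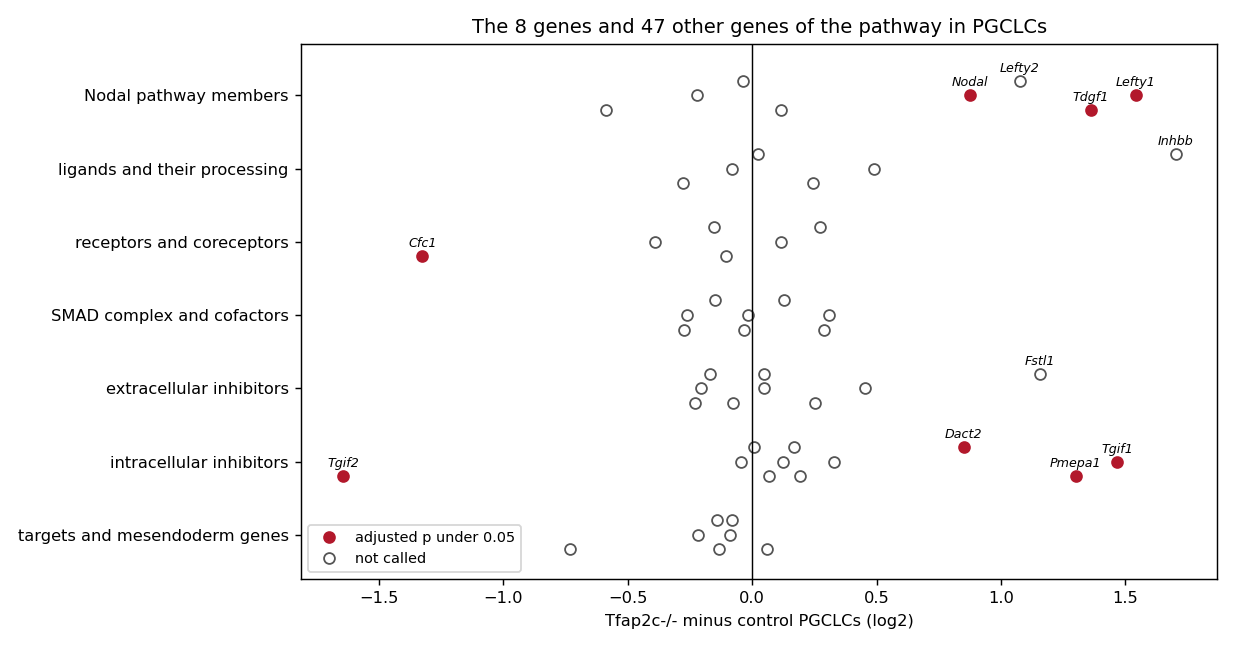
Tfap2c-/- minus control PGCLC difference (log2) for the 8 genes (top row) and for 47 other pathway genes grouped by role, with filled points for an adjusted p under 0.05 in limma. Calls among the other genes are Cfc1 and Tgif2 on the lower side and Tgif1, Pmepa1 and Dact2 on the higher side.

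Between control PGCLCs and control ESCs 3 of the 47 genes were higher and 2 lower, against 4.64% and 3.72% of all genes. Cfc1 (1.56, adjusted p = 0.00689, limma), Tgif2 (1.82, adjusted p = 0.000959, limma) and Lhx1 (0.74, adjusted p = 0.0425, limma) were higher, and Dact2 (-1.59, adjusted p = 0.003, limma) and Tgif1 (-1.09, adjusted p = 0.0258, limma) were lower. With the probe sets of Dact2 averaged its difference was -0.78 and still called. The Lhx1 levels, 3.40 and 3.83 in control PGCLCs and 2.82 and 2.92 in control ESCs, lie near the array medians of 3.47 to 3.55. Without control PGCLC array 2 neither Tgif1 (-0.73, adjusted p = 0.0802, limma) nor Lhx1 (0.53, adjusted p = 0.189, limma) was called. Tgif1 also lost its call without control ESC array 1 (adjusted p = 0.123, limma) or 2 (adjusted p = 0.11, limma) and with only the 4 arrays compared (adjusted p = 0.0713, limma), Cfc1 without control ESC array 1 (adjusted p = 0.0538, limma), and Lhx1 in 10 of 16 alternative settings in all. In Tfap2c-/- PGCLCs against Tfap2c-/- ESCs 2 of the 47 genes were higher, against 1.35% of all genes, Skil (1.53, adjusted p = 0.039, limma) and Smad7 (0.78, adjusted p = 0.033, limma), and each lost its call in 9 of 17 alternative settings, without either Tfap2c-/- PGCLC array among them.

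The genes whose 8 levels ran most like those of each pathway gene were listed by Pearson correlation over the 8 arrays, among 4594 genes whose levels span at least 1 log2 unit. The 8 arrays share their group structure, so the values are descriptive. For Nodal they were Cited2 (r = 0.99), Ric8b (0.98) and Actn3 (0.97), and 54 genes had an r of at least 0.9. For Tdgf1 they were Slco4a1 (0.95), Socs3 (0.94) and Ppp1r1a (0.94), among 36 such genes. For Lefty1 they were Grhl2, Tnfsf11 and Pml (all 0.97 after rounding), among 61 such genes, and for Lefty2 Arid1a, A930007A09Rik (both 0.97) and Gm6958 (0.96), among 37.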

How the data were processed

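Per the labels, RNA of ESCs and PGCLCs was hybridised to single-channel arrays, and the authors deposited 1 series table of log2 expression values for all 8 arrays. Normalization across arrays was the authors' own, by RMA according to the methods and by GCRMA, with no version, according to the submitters' processing notes. Array medians lay between 3.47 and 3.55, no value column was left out, and no array was a copy of another.

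Of 45101 probe sets, 64 are controls, 34945 name 1 gene, 932 name several and 9160 are not named in the annotation used. Where a gene had several probe sets, the brightest by mean level was used. A single model of the 4 group means was fitted in limma 3.58.1 (R 4.3.3), with eBayes and a trend on the mean level, which left 4 residual and 3.67 prior degrees of freedom. Tests were two-sided, p was adjusted by Benjamini-Hochberg over 18193 genes, and a gene was called at an adjusted p under 0.05. The fit was tested on simulated data. With 2 arrays a group, their number limits the precision, and p-values measure only the spread between these samples. The paper names both lines of each genotype for the arrays, so this spread takes in differences between lines as well as technical ones. The main fit does not use the pairing of each knockout line with its control line, since the labels do not tie arrays to lines.

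The members and gene lists were chosen with earlier results of these data known. The rule for other named pathway genes took those called in a comparison, or the 2 with the largest difference where none of a list was called, and for likeness the 3 highest correlations. Of the listed pathway genes, 3 were not analysed here. Alternatives changed the probe set, filter, scaling, variance model, arrays in the fit, a replicate block and the call rule. Counts of alternative settings for a single gene cover the limma fits and leave out the call rule. Plots used Matplotlib 3.10.9 and tables pandas 2.3.3 with Python 3.11.15.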

Additional observations from a re-analysis of the deposited data

Results flagged for a closer look

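No group has the 4 arrays needed to look for a single outlying sample. Of the 8 genes and the 47 other pathway genes together, 5 of 55 (9.09%) had knockout arrays wholly on opposite sides of the control arrays in the 2 cell types, against 4.08% of all genes, and for none did the difference between the knockout effects pass in limma. Tgif1 differed by 1.47 in PGCLCs and by -0.14 in ESCs, a difference between the effects of 1.61 (adjusted p = 0.136). Cfc1 differed by -1.33 in PGCLCs and by 0.40 in ESCs, a difference of -1.73 (adjusted p = 0.112). Tgfbr2 differed by -0.39 in PGCLCs and by 0.40 in ESCs, a difference of -0.79 (adjusted p = 0.513). Acvr1c differed by 0.11 in PGCLCs and by -0.31 in ESCs, a difference of 0.43 (adjusted p = 0.625). Cer1 differed by -0.17 in PGCLCs and by 0.20 in ESCs, a difference of -0.37 (adjusted p = 0.63). The levels of Acvr1c (3.20 to 3.55) and of Cer1 (1.94 to 2.34) lay near or below the array medians of 3.47 to 3.55.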

How the results depend on the processing

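Of the 8 genes, 3 were called between Tfap2c-/- and control PGCLCs, against 0 to 4 when 1 array was left out and 1 by the rule of a difference over 1.5. Without Tfap2c-/- PGCLC array 2 the count was 0, and without Tfap2c-/- PGCLC array 1 or either control PGCLC array it was 1. The count of 3 between control PGCLCs and control ESCs ran from 1 to 4 with 1 array left out and was 0 by the rule of 1.5. The count of 3 between Tfap2c-/- PGCLCs and Tfap2c-/- ESCs ran from 1 to 3 with 1 array left out, and was 1 with probe sets of a gene averaged, 1 with only the 4 arrays compared and 1 by the rule of 1.5. No gene of the 8 was called between Tfap2c-/- and control ESCs under any setting. The cause of these changes was not tested, beyond the fewer samples in the settings that leave arrays out. Over all genes, 562 calls between Tfap2c-/- and control PGCLCs became 187 with only the 4 arrays and 87 to 608 with 1 array left out, the 422 in Tfap2c-/- cells became 56 and 83 to 278, the 1522 in control cells became 343 to 1742 with 1 array left out, and the 27 for the difference of effects became 1 to 55.

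Values that changed sign were all uncalled, and none belonged to the calls of Nodal, Tdgf1 and Lefty1 in PGCLCs. With 1 array left out, the Tfap2c-/- minus control difference in PGCLCs ran from -0.23 to 0.16 for Foxh1 and from -0.051 to 0.28 for Acvr2b. In ESCs it ran from -0.11 to 0.063 for Tdgf1, -0.0038 to 0.56 for Acvr2b, -0.023 to 0.016 for Smad2 and -0.20 to 0.0017 for Smad3. The difference of effects ran from -0.24 to 0.87 for Lefty2 and from -0.44 to 0.12 for Acvr2b. Nodal ran from -0.043 to 0.20 between control PGCLCs and control ESCs, and Smad3 from -0.14 to 0.27 between Tfap2c-/- PGCLCs and Tfap2c-/- ESCs. When the probe sets of a gene were averaged, Smad3 was 0.078 in ESCs and -0.19 between the Tfap2c-/- cell types, and the difference of effects for Acvr2b was 0.011. With a further quantile scaling Smad2 in ESCs was 0.0003.

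Arrays of the same number correlated in their deviations from the group means by 0.39 between the PGCLC groups and -0.33 between the ESC groups. The other pairs of groups gave 0.26 (Tfap2c-/- PGCLCs and Tfap2c-/- ESCs), 0.17 (control PGCLCs and Tfap2c-/- ESCs), 0.07 (control PGCLCs and control ESCs) and -0.005 (Tfap2c-/- PGCLCs and control ESCs). With no label that ties a number to a line, the numbers were not taken to pair the arrays. With the replicate number as a block, the counts of the 8 genes stayed at 3, 0, 0, 3 and 3, and the calls over all genes were 556, 0, 22, 1571 and 454 (Tfap2c-/- against control PGCLCs and ESCs, the difference of effects, and PGCLCs against ESCs in control and Tfap2c-/- cells). Among the other pathway genes named, the block ended the call of Dact2 between Tfap2c-/- and control PGCLCs (adjusted p = 0.0533, limma). With the ESC numbers crossed, an alternative chosen after seeing the data, 0 of the 8 genes and 0 of all genes were called between Tfap2c-/- and control ESCs.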
